A study of Mus musculus with 20 samples.

Results

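The interferon response genes described here are 41 genes that cells switch on after contact with interferon. They were taken by gene symbol from a list drawn up for this series, and all 41 were found among the 28100 genes of the 2 deposited count tables. That list was made with earlier results of these data known. Counts of the 41 beside shares of all genes are therefore descriptions, not independent evidence. The study addressed Pklr, a pyruvate kinase gene, in non-alcoholic fatty liver disease. Liver RNA was sequenced from 20 male C57BL/6J mice on the HF/HS diet (Research Diets D12266B). Every mouse received an AAV8 vector (a recombinant virus that delivers genes to the liver) by vein at 8 weeks of age, and livers were taken at 25 weeks. All 4 vectors carried a hepatocyte promoter, that of thyroxine binding globulin, so the other cells of the liver were not the intended site of expression. In the knockdown experiment, 5 livers had received a short hairpin RNA against Pklr (shPKLR) and 5 a hairpin against firefly luciferase (shLUC). In the overexpression experiment, 5 livers had received the Pklr cDNA (PKLR) and 5 had received GFP. No group without a vector was analysed here, so all 20 livers, controls included, had been given AAV8.

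Interferons bind receptors on the cell surface, whose JAK kinases activate transcription factors of the STAT family. One of the complexes so formed, ISGF3, holds STAT2 and IRF9 and binds a DNA element named ISRE (interferon-stimulated response element) in front of its target genes. Another element, named GAS (gamma-activated sequence), is typical of the response to interferon gamma. The targets include sensors of foreign RNA, enzymes that degrade or modify RNA, proteins that block viral entry or replication, and the factors of the pathway itself, so the response feeds back on its own components. In liver the response is known from viral hepatitis, and hepatocytes and the resident macrophages can both mount it.

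Promoter stretches of 9 of the genes show the element that the ISGF3 complex reads. They come from the RefSeq promoter table of GRCm38.p6, are given on the strand of the gene from 5′ to 3′, and end before the start site. Capitals mark matches to the ISRE core, searched as 2 copies of GAAA set apart by any 2 bases (or TTTC read on the opposite strand), and overlapping matches run together. Isg15 shows 3 overlapping cores, the Ifit genes show separate ones, Oas1a and Oas1g show how alike a pair of neighbouring copies is, and Rsad2 and Oas3 show single cores.
Isg15 (chr4:156200863-156200908, minus strand): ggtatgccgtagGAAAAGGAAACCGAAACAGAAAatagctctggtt
Ifit1 (chr19:34640773-34640825, plus strand): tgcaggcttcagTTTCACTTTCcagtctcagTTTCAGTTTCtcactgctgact
Ifit3 (chr19:34583361-34583428, plus strand): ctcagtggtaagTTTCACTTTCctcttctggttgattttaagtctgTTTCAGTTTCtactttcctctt
Oas1a (chr5:120907526-120907557, minus strand): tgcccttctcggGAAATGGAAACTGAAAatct
Oas1g (chr5:120887614-120887643, minus strand): tgcccttctcggGAAATGGAAACTGAAAat
Oas3 (chr5:120777713-120777746, minus strand): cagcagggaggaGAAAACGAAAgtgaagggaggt
Rsad2 (chr12:26456551-26456584, minus strand): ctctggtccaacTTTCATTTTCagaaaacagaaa
Stat2 (chr10:128270264-128270297, plus strand): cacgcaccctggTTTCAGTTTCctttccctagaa
Igtp (chr11:58199510-58199543, plus strand): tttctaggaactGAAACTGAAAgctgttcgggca

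The table held a window for 30 of the 41 genes, which ran from 250 bases before to 50 bases after the start site. An ISRE core lay in the windows of 17 of the 30 genes (56.7%), against 3.99% of all 27025 genes of the table. Within the 250 bases before the start the shares were 46.7% and 3.46%. The GAS core, searched as TTCNNNGAA, which reads the same on both strands, lay in 6 of the 30 genes (20%) and in 9.55% of all genes. The 6 were Bst2, Eif2ak2, Ifi35, Ifit2, Igtp and Oas1a. Ifit3b, a near copy of Ifit3, had the same letters as the stretch printed for Ifit3. Cmpk2, Dtx3l, Herc6, Ifi35, Ifi44, Ifi47, Ifit2, Irf7, Irf9, Lgals3bp, Oasl1, Oasl2 and Xaf1 held no exact ISRE core in their windows, which says only that these letters were not in these windows. The map of match positions shows the cores of Isg15, Ifit1, Bst2, Rsad2 and Oas3 between 130 and 66 bases before the start, and those of Ifih1, Eif2ak2 and Ddx58 after it.

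**Figure D1:**
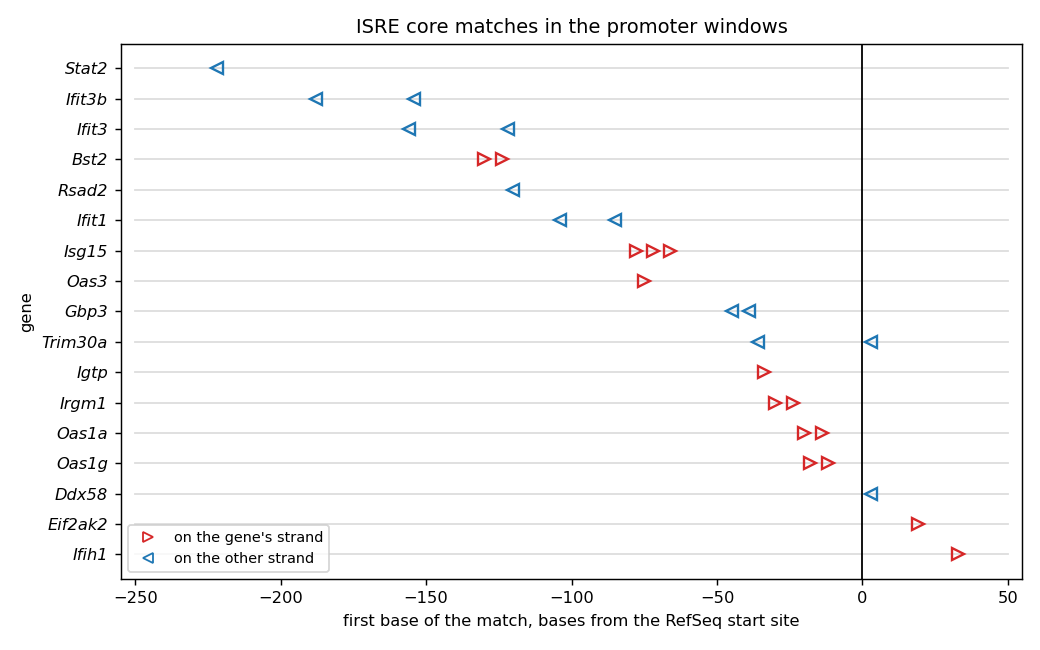
Position of each ISRE core match (x axis, bases from the RefSeq start site, where negative values lie before it) in the promoter window of each of the 17 genes that hold one (y axis). Arrowheads give the strand relative to the gene, and grey lines give the extent of the window, from 250 bases before to 50 after the start.

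Library totals were 29933820 to 45413803 counts in 19 livers and 167891680 in shPKLR replicate 4. Levels are given as counts per 1e6 counts of the library after TMM normalization (CPM). Pklr, the gene that the vectors targeted, was at 376, 536, 354, 493 and 634 CPM in shLUC replicates 1 to 5 and at 71.9, 53.0, 40.9, 25.4 and 83.3 CPM in shPKLR. It was at 64.3, 103, 136, 144 and 144 CPM with GFP and at 769, 838, 913, 378 and 808 CPM with PKLR. Each liver thus matched its vector, PKLR replicate 4 stood at 378 CPM beside 769 or more in the other PKLR livers, and Pklr was higher in every shLUC liver than in any GFP liver. CPM values here are on 1 scale over all 20 livers, while fold changes, standard errors (SE) and adjusted p-values come from edgeR fits against each experiment's own control. P-values weigh a difference between groups against the spread between these livers. In RNA from whole liver, more cells of a type that carries a transcript and more of the transcript per cell cannot be told apart.

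All 41 genes passed the filter on low counts, and the lowest count of any in a liver was 23, for Oas3 in shLUC replicate 4. Per kilobase of exon, the highest mean levels over the 20 livers were those of Bst2 (179 CPM per kilobase), Ifi27 (117) and Iigp1 (48.6). The lowest were those of Oas3 (0.287 CPM per kilobase), Mx1 (0.849) and Ifit2 (1.08).

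In the livers that overexpressed Pklr, 6 of the 41 genes rose and none fell by edgeR's test, to which calls refer where no other tool is named. They were Oasl1, Ifih1, Dtx3l, Dhx58, Herc6 and Ddx58, with log2 fold changes from 0.43 to 1.07, and the RNA sensors Ifih1, Ddx58 and Dhx58 make up 3 of them. Of all 15842 genes tested, 2.03% were called in either direction and 1.19% were called higher. The log2 fold changes of the 41 genes were positive throughout, from 0.0005 to 1.39, and their median was 0.52 beside 0.0057 for all genes tested. An unadjusted p under 0.05 with a higher level was found for 26 of the 41, and for 9.68% of all genes. Because the 41 were chosen with earlier results of these data known, this contrast is a description only. In 4 of the 41 (Oasl1, Ifih1, Dtx3l and Iigp1) every PKLR liver lay above every GFP liver, as in 3.1% of all genes.

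The number of calls depended on single livers. It was 13 without PKLR replicate 4, 4 without GFP replicate 1 or 2, 3 without PKLR replicate 2, and 1 without GFP replicate 3 or 4 or PKLR replicate 1, 3 or 5. Calls of a higher level over all genes moved too, from 188 with all libraries to 121 without PKLR replicate 4. They were 98 or 106 without GFP replicate 1 or 2, 110 without PKLR replicate 2, and 64 to 108 in the fits that left 1 of the 41. Oasl1 was called in each of those fits. DESeq2, with all libraries, called 19 of the 41 higher, beside 3.36% of all genes.

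In the knockdown livers none of the 41 passed edgeR's threshold, where 0.00641% of 15611 genes (Pklr alone) were called. Of the 41 genes, 36 had positive log2 fold changes, with a median of 0.46 beside 0.022 for all genes tested and a range from -0.29 to 1.66. An unadjusted p under 0.05 with a higher level was found for 17 of the 41, and for 9.32% of all genes. DESeq2 called 6 of them higher (Mx1, Oas1g, Oas2, Mx2, Oas3 and Zbp1), beside 0.782% of all genes. In 1 edgeR fit of all 20 libraries Mx1 was called, beside 0.329% of all genes, and limma-voom called 0. In none of the 41 did every shPKLR liver lie above every shLUC liver, as in 1.24% of all genes. Without shPKLR replicate 5 the count at an unadjusted p under 0.05 was 31 in place of 17, with a median of 0.58, and still none was called.

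**Figure D2:**
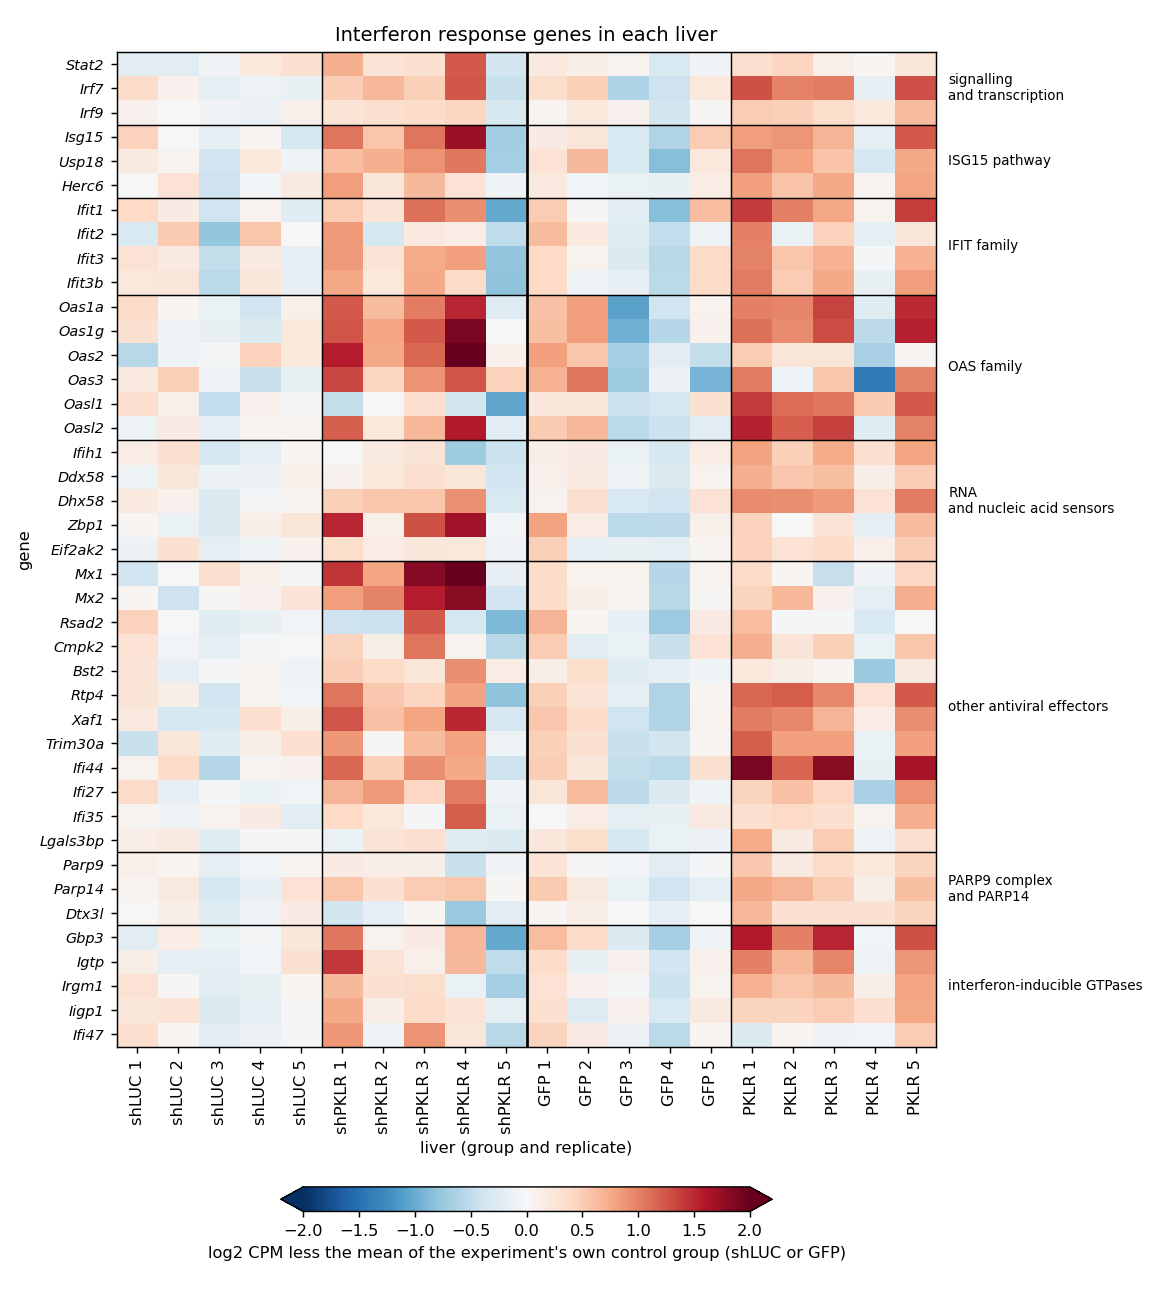
Each row is 1 of the 41 genes, grouped by role, and each column 1 of the 20 livers. Colour gives log2 CPM less the mean of the control group of the same experiment, from blue (lower) to red (higher), with the ends of the scale at 2 on the log2 scale. The columns of shPKLR replicate 5 and PKLR replicate 4 are paler or bluer than those of the other livers of their groups.

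The genes of signalling and transcription in the list are Stat2 and Irf9, which are parts of ISGF3, and Irf7, the factor that amplifies interferon production. None was called by edgeR, and DESeq2 called Irf7 and Irf9 in overexpression. Irf7 had mean levels of 48.9 ± 8.10 CPM with shLUC, 72.5 ± 28.0 with shPKLR, 68.2 ± 21.4 with GFP and 128 ± 41.01 with PKLR (SD, n = 5 each). Its log2 fold changes were 0.56 (SE 0.24) in the knockdown and 0.92 (SE 0.29) in overexpression, with edgeR adjusted p-values of 0.317 and 0.125. For Stat2 they were 0.50 and 0.23, and for Irf9 0.22 and 0.44. All 6 values were positive, and the SE of Irf7 was the widest of the 3 genes in overexpression.

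Isg15 encodes a ubiquitin-like protein that is attached to other proteins, Herc6 the ligase that attaches it in mice, and Usp18 the protease that removes it and also restrains the interferon receptor. Herc6 (ENSMUSG00000029798; GRCm38 chromosome 6, 57581000 to 57664632) was at 11.2, 9.39, 8.94, 8.79 and 10.9 CPM in GFP replicates 1 to 5 and at 17.3, 14.6, 16.7, 10.2 and 17.0 CPM in PKLR. Only PKLR replicate 4 lay within the range of the GFP livers, and Herc6 rose by 0.64 on the log2 scale (SE 0.14, edgeR adjusted p = 0.0451). In the knockdown it was at 7.37, 9.003, 5.54, 7.06 and 8.30 CPM with shLUC and 13.2, 8.70, 11.5, 9.02 and 6.85 CPM with shPKLR. Those groups overlapped, with a log2 fold change of 0.39 (SE 0.19, edgeR adjusted p = 0.343). Isg15 had log2 fold changes of 0.91 (knockdown) and 0.72 (overexpression) and Usp18 of 0.60 and 0.57, none of them called. The exons of Herc6 share 13.7% of their length with Gm45193 on the same strand, whose reads could not be separated here.

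The IFIT proteins bind foreign RNA and block its translation. Their 4 genes had log2 fold changes of 0.06 to 0.49 in the knockdown and 0.31 to 0.93 in overexpression. None was called by edgeR, and DESeq2 called Ifit1 in overexpression. Ifit1 had the largest of them, with means of 21.3 ± 8.07 CPM with GFP and 40.1 ± 13.2 CPM with PKLR (SD, n = 5 each; edgeR adjusted p = 0.144). Ifit3 and Ifit3b share sequence: 51.2% of the 50-base stretches of Ifit3 occur in Ifit3b, so the split of reads between them is uncertain.

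The OAS family makes 2′-5′ oligoadenylates, which activate the RNA-cleaving enzyme RNase L, and Oasl1 and Oasl2 are its OAS-like members. Oasl1 is known in mice as an inhibitor of Irf7 translation. This family held both the clearest rise with Pklr overexpression and the largest log2 fold change in the knockdown, in different genes.

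Oasl1 (ENSMUSG00000041827; chromosome 5, 114923240 to 114937915) was at 22.4, 22.7, 14.2, 15.1 and 23.8 CPM in GFP replicates 1 to 5. In PKLR replicates 1 to 5 it was at 50.6, 41.5, 40.0, 27.6 and 45 CPM. Every PKLR liver lay above every GFP liver, and the rise was 1.07 on the log2 scale (SE 0.19, edgeR adjusted p = 0.0188). In the knockdown it was at 27.5, 23.4, 15.4, 23.0 and 21.2 CPM with shLUC and 15.6, 21.5, 27.0, 16.8 and 10.5 CPM with shPKLR. The groups overlapped there and the log2 fold change was -0.29 (SE 0.22, edgeR adjusted p = 0.523).

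Oas2 (ENSMUSG00000032690; chromosome 5, 120730333 to 120749853) showed another pattern. With shLUC it was at 1.83, 2.57, 2.64, 3.77 and 3.14 CPM, and with shPKLR at 8.16, 4.66, 6.07, 22.0 and 2.93 CPM. In 4 of the 5 shPKLR livers it lay above all shLUC livers, and replicate 4 alone was above 10 CPM. Its log2 fold change of 1.66 (SE 0.46, edgeR adjusted p = 0.221) was 0.95 without that liver. With GFP it was at 9.48, 7.93, 3.37, 4.55 and 3.82 CPM and with PKLR at 7.64, 6.36, 6.36, 3.39 and 5.56 CPM. The overexpression groups overlapped almost completely, with a log2 fold change of 0.02 (SE 0.31, edgeR adjusted p = 0.980).

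Oas1g (ENSMUSG00000066861; chromosome 5, 120876142 to 120887613) was at 4.33, 3.27, 3.15, 2.89 and 4.03 CPM with shLUC and 8.45, 6.10, 8.21, 13.0 and 3.47 CPM with shPKLR. It was at 12.4, 14.6, 4.16, 5.47 and 8.64 CPM with GFP and 17.6, 15.8, 20.3, 5.64 and 23.8 CPM with PKLR. In each experiment 4 of the 5 treated livers lay above all their controls, and the remaining one, shPKLR replicate 5 or PKLR replicate 4, lay among them. The log2 fold change was 1.15 in the knockdown (SE 0.28, edgeR adjusted p = 0.194), compared with 0.89 in overexpression (SE 0.41, edgeR adjusted p = 0.281). Oas1a had 0.93 and 0.89, but 57.6% of its 50-base stretches occur in Oas1g, and the ratio of Oas1g to Oas1a counts kept to 0.515 to 0.724 over the 20 livers, so these are not separate measurements.

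Oas3, the gene of lowest level per kilobase, was at 1.14, 1.40, 0.923, 0.716 and 0.889 CPM with shLUC and 2.55, 1.34, 1.87, 2.43 and 1.38 CPM with shPKLR. With GFP it was at 3.35, 4.36, 1.23, 1.88 and 1.06 CPM and with PKLR at 4.26, 1.91, 3.05, 0.743 and 4.12 CPM. Its log2 fold change was 0.92 (SE 0.26, edgeR adjusted p = 0.222) in the knockdown and 0.26 (SE 0.50, edgeR adjusted p = 0.824) in overexpression, where the livers of each group spread over several-fold. Oasl2 was at 5.23, 6.31, 4.97, 5.76 and 5.92 CPM with shLUC and 12.9, 6.54, 8.96, 17.0 and 4.79 CPM with shPKLR. It was at 13.5, 14.8, 6.42, 6.89 and 8.02 CPM with GFP and 27.1, 21.4, 24.3, 7.84 and 18.6 CPM with PKLR. PKLR replicate 4 lay among the GFP livers, as for Oas1g, and shPKLR replicate 5 lay below every shLUC liver. The log2 fold changes of 0.83 (SE 0.28) and 1.01 (SE 0.34) had edgeR adjusted p-values of 0.268 and 0.146.

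Among the sensors, Ifih1 encodes MDA5, Ddx58 encodes RIG-I and Dhx58 encodes LGP2, the 3 cytosolic receptors of double-stranded RNA of the RIG-I family. Ifih1 (ENSMUSG00000026896; chromosome 2, 62595798 to 62646255) was at 38.9, 40.0, 32.3, 28.5 and 39.3 CPM with GFP and 62.2, 49.1, 59.5, 44.2 and 61.5 CPM with PKLR. The groups did not overlap, and it rose by 0.64 (SE 0.13, edgeR adjusted p = 0.0259). With shLUC it was at 36.6, 41.3, 25.8, 28.6 and 34.2 CPM and with shPKLR at 33.1, 37.4, 39.1, 20 and 24.2 CPM, which overlap (log2 fold change -0.13, SE 0.19, edgeR adjusted p = 0.752).

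Ddx58 (ENSMUSG00000040296; chromosome 4, 40203773 to 40239828) was at 34.2, 36.1, 30.2, 26.0 and 33.5 CPM with GFP and 52.8, 46.1, 48.0, 34.4 and 44.9 CPM with PKLR. It rose by 0.51 (SE 0.12, edgeR adjusted p = 0.0494), close to the threshold, with PKLR replicate 4 inside the GFP range. In the knockdown, at 27.1, 33.6, 26.5, 26.6 and 30.9 CPM with shLUC and 30.6, 33.5, 36.0, 34.0 and 22.1 CPM with shPKLR, the groups overlapped (log2 fold change 0.10, SE 0.14, edgeR adjusted p = 0.723).

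Dhx58 (ENSMUSG00000017830; chromosome 11, 100694884 to 100704271) was at 16.3, 19.4, 12.5, 11.9 and 19.0 CPM with GFP and 30.0, 29.7, 27.9, 19.0 and 31.9 CPM with PKLR. PKLR replicate 4 was level with the upper GFP livers and the other 4 stood above them all, and Dhx58 rose by 0.82 (SE 0.17, edgeR adjusted p = 0.0371). With shLUC it was at 14.3, 13.2, 10.2, 12.2 and 12.8 CPM and with shPKLR at 17.4, 18.3, 18.4, 23.5 and 10.1 CPM, so that again 4 of 5 treated livers exceeded every control (log2 fold change 0.48, SE 0.19, edgeR adjusted p = 0.297). Zbp1, a sensor of Z-form nucleic acids that can start necroptosis, was at 5.40, 4.79, 4.33, 5.69 and 6.20 CPM with shLUC and 15.1, 5.60, 12.8, 16.9 and 5.03 CPM with shPKLR. Replicates 1, 3 and 4 of shPKLR were high and replicates 2 and 5 lay among the controls (log2 fold change 1.06, SE 0.31, edgeR adjusted p = 0.225). With GFP it was at 21.4, 13.5, 8.37, 8.44 and 13.1 CPM and with PKLR at 16.9, 12.1, 14.6, 10.8 and 18.9 CPM, where the groups overlapped (0.18, SE 0.26, edgeR adjusted p = 0.751). Eif2ak2, which encodes the kinase PKR, had 0.16 and 0.34 and was called in neither experiment by edgeR.

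The other antiviral effectors are 12 genes, of which edgeR called none in either experiment. DESeq2 called Mx1 and Mx2 in the knockdown and Rtp4, Ifi44, Xaf1 and Trim30a in overexpression. Their median log2 fold changes were 0.48 in the knockdown and 0.38 in overexpression. Mx1 and Mx2 encode dynamin-like GTPases that trap viral particles, and common inbred mouse strains carry defective copies of both. Mx1 (ENSMUSG00000000386; chromosome 16, 97447035 to 97462907) was at 1.07, 1.43, 1.78, 1.52 and 1.39 CPM with shLUC and 3.92, 2.50, 5.15, 7.33 and 1.26 CPM with shPKLR. Of the shPKLR livers, 4 were above all shLUC livers and replicate 5 was among them (log2 fold change 1.49, SE 0.38, edgeR adjusted p = 0.198). It was at 4.55, 3.69, 3.71, 2.37 and 3.71 CPM with GFP and 4.60, 3.62, 2.56, 3.36 and 4.72 CPM with PKLR, which overlap (0.08, SE 0.20, edgeR adjusted p = 0.877).

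Mx2 was at 5.12, 3.74, 5.06, 5.32 and 6.01 CPM with shLUC and 8.94, 10.01, 14.9, 17.5 and 3.80 CPM with shPKLR (log2 fold change 1.12, SE 0.32, edgeR adjusted p = 0.224). It was at 10.8, 9.05, 8.63, 5.66 and 8.53 CPM with GFP and 11.3, 13.3, 8.89, 7.40 and 13.9 CPM with PKLR (0.37, SE 0.20, edgeR adjusted p = 0.345). The same 4 shPKLR livers as for Mx1 stood above their controls. Rsad2, which encodes viperin, a producer of a chain-terminating nucleotide, differed in mean between experiments and hardly within them. Its means were 12.2 and 12.4 CPM for shLUC and shPKLR and 24.9 and 25.1 CPM for GFP and PKLR. The shPKLR mean rested on replicate 3, as the livers were at 9.03, 8.915, 28.1, 9.41 and 6.40 CPM. All shPKLR livers but that one lay below the lowest shLUC liver (10.1 CPM). Bst2, which encodes tetherin, had 0.45 in the knockdown and 0.0005 in overexpression.

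Ifi44, an interferon-induced cytoplasmic protein, had the largest log2 fold change of the 41 in overexpression. It was not called by edgeR in the fit of that experiment, and was called by DESeq2 and in the edgeR fit of all 20 libraries, which called 0.731% of all genes higher. It was at 12.7, 10.6, 6.49, 6.18 and 11.2 CPM with GFP and 33.3, 20.4, 31.7, 8.17 and 28.6 CPM with PKLR. Replicate 4 alone lay within the GFP range (1.39, SE 0.36, edgeR adjusted p = 0.0835). With shLUC it was at 4.78, 5.83, 3.02, 4.70 and 4.79 CPM and with shPKLR at 10.04, 6.29, 8.69, 7.68 and 3.38 CPM (0.63, SE 0.26, edgeR adjusted p = 0.303).

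Rtp4, known as a negative regulator of the response, was the nearest to the threshold among those that edgeR did not call, and DESeq2 and limma-voom called it (0.98, SE 0.22, edgeR adjusted p = 0.0526). Its levels were 27.1, 23.6, 17.1, 12.9 and 20.3 CPM with GFP and 43.5, 45.4, 38.2, 24.0 and 46.1 CPM with PKLR. In the knockdown they were 20.9, 19.1, 13.4, 18.4 and 16.9 CPM with shLUC and 36.8, 25.4, 23.7, 30.6 and 10.02 CPM with shPKLR (0.50, SE 0.26, edgeR adjusted p = 0.372). The 4 shPKLR livers other than replicate 5 were above all shLUC livers, and that replicate was below them all. Its exons share 13.9% of their length with Gm45338 on the same strand.

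Xaf1, a pro-apoptotic partner of XIAP, was at 9.17, 6.28, 6.40, 10.1 and 8.67 CPM with shLUC and 19.2, 12.01, 13.8, 22.7 and 6.31 CPM with shPKLR (0.86, SE 0.28, edgeR adjusted p = 0.259). With GFP it was at 16.4, 14.8, 8.63, 7.49 and 11.9 CPM and with PKLR at 23.0, 22.1, 18.2, 12.6 and 21.7 CPM (0.73, SE 0.23, edgeR adjusted p = 0.125). Here too shPKLR replicate 5 and PKLR replicate 4 lay among their controls, and the other treated livers lay above them. Of the rest of this role group, Cmpk2, Trim30a, Ifi27, Ifi35 and Lgals3bp had log2 fold changes of -0.01 (Lgals3bp) to 0.61 (Ifi27) in the knockdown and 0.36 (Lgals3bp) to 0.74 (Trim30a) in overexpression. The exons of Ifi35 overlap those of Gm11626 on the opposite strand over 16.8% of their length.

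**Figure D3:**
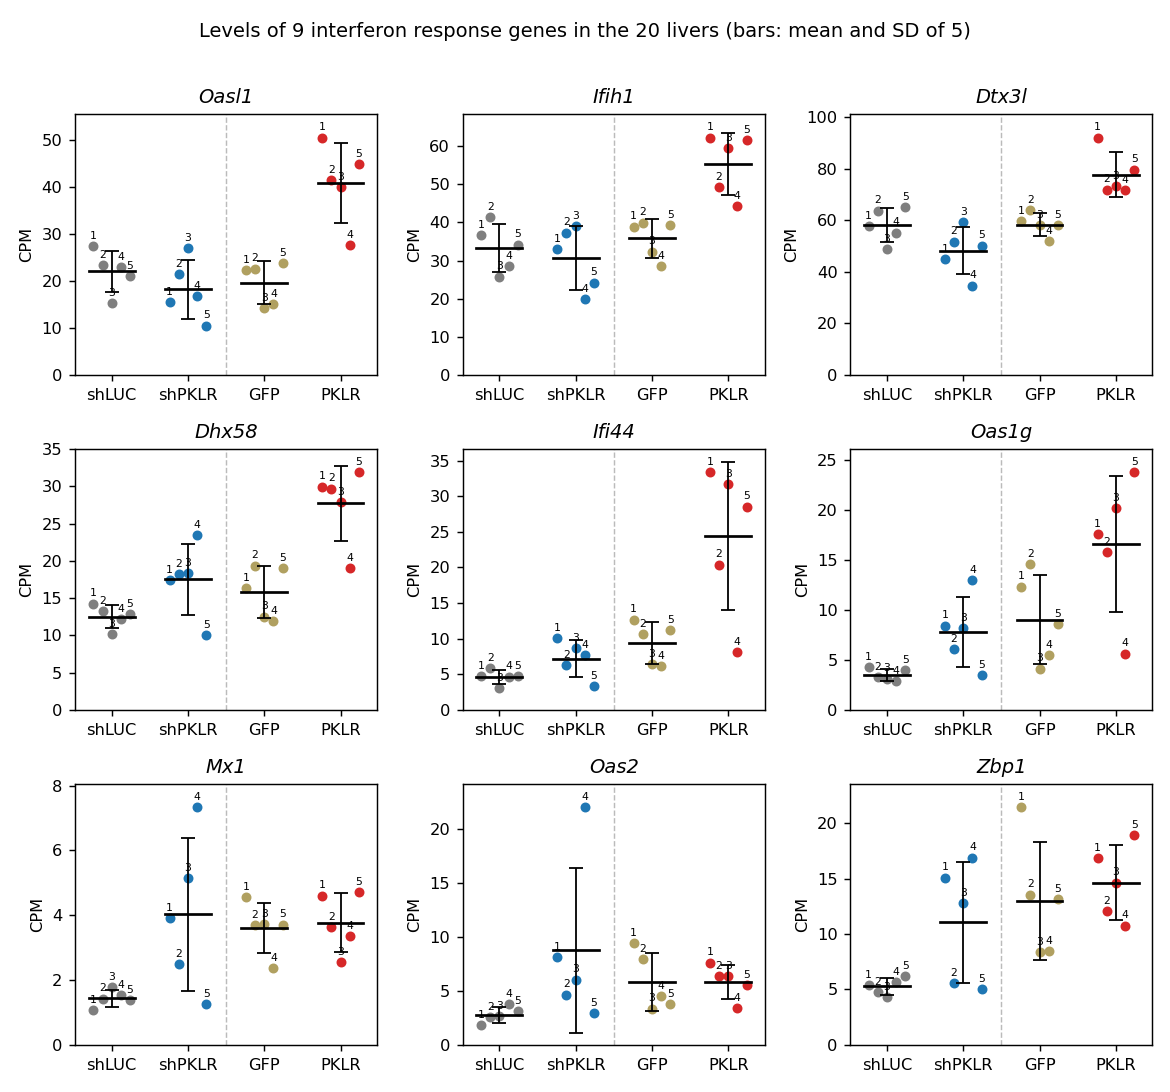
CPM (y axis, from 0) of 9 genes in the 4 groups (x axis), with 1 point per liver and its replicate number, and the mean and SD of the 5 livers in black. Oasl1, Ifih1 and Dtx3l have all PKLR livers above all GFP livers, while Mx1 and Oas2 are spread most among the shPKLR livers. Zbp1 is spread about as widely with GFP (SD 5.32 CPM) as with shPKLR (SD 5.46 CPM).

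Parp9 and Dtx3l encode partners in 1 ADP-ribosyl transferase and ubiquitin ligase complex, their genes lie head to head, and Parp14 is a related enzyme. Dtx3l (ENSMUSG00000049502; chromosome 16, 35926511 to 35939151) was at 59.7, 63.8, 58.1, 51.9 and 58.1 CPM with GFP and 92.0, 71.9, 73.2, 71.8 and 79.6 CPM with PKLR. The groups were apart and Dtx3l rose by 0.43 (SE 0.09, edgeR adjusted p = 0.0329), with PKLR replicate 4 close to replicates 2 and 3. With shLUC it was at 57.8, 63.7, 48.9, 55.2 and 65.1 CPM and with shPKLR at 44.99, 51.7, 59.3, 34.7 and 50.1 CPM (-0.28, SE 0.15, edgeR adjusted p = 0.366).

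Parp9 (ENSMUSG00000022906; chromosome 16, 35938470 to 35972605) was at 65.8, 55.6, 52.6, 46.9 and 53.7 CPM with GFP and 79.3, 62.1, 71.5, 63.2 and 74.7 CPM with PKLR (0.37, SE 0.10, edgeR adjusted p = 0.0906). With shLUC it was at 54.3, 52.7, 45.5, 48.9 and 52.8 CPM and with shPKLR at 56.5, 55.5, 55.1, 37.2 and 48.4 CPM (-0.02, SE 0.13, edgeR adjusted p = 0.949). In both genes shPKLR replicate 4, which was the highest liver of its group for 18 of the 41 genes, was the lowest. Their exons overlap on opposite strands over 9.4% of Parp9 and 8.0% of Dtx3l, and whether the counting used strand is not given in the sources used here. Parp14 had 0.38 and 0.52 and was not called by edgeR.

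The interferon-inducible GTPases, which attack the vacuoles of intracellular parasites, respond to interferon gamma in particular. None of the 5 was called by edgeR, and DESeq2 called Gbp3, Irgm1, Igtp and Iigp1 in overexpression. Their log2 fold changes ran from 0.15 (Irgm1) to 0.51 (Igtp) in the knockdown and from 0.03 (Ifi47) to 1.11 (Gbp3) in overexpression, where 4 of the 5 had an unadjusted p under 0.05. Iigp1 was at 318, 214, 272, 206 and 289 CPM with GFP and at 350.3, 349, 366, 324 and 437 CPM with PKLR. These groups did not overlap, although the edgeR adjusted p was 0.0817 (log2 fold change 0.51, SE 0.14).

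Knockdown and overexpression move Pklr in opposite directions, and 36 of the 41 genes had positive log2 fold changes in both. The 2 experiments share no control liver. Of the 15445 genes tested in both, 20.5% were positive in both. Oasl1, Dtx3l, Ifih1, Parp9 and Lgals3bp were the 5 that were positive in overexpression and negative in the knockdown. An unadjusted p under 0.05 was reached in both experiments by 8 genes (Irf7, Isg15, Oas1a, Oasl2, Dhx58, Xaf1, Ifi44 and Parp14), in the knockdown alone by 9 and in overexpression alone by 18, each with a higher level. Of the genes tested in both experiments, 0.265% met this with a higher level in both, 7.34% in the knockdown alone and 7.29% in overexpression alone.

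A fit of all 20 livers and 16407 genes gave the mean of both effects and their difference. For the mean effect, all 41 genes had positive values with a median of 0.51, beside 0.0067 for all genes. edgeR called none of them, and it called 0% of all genes. An unadjusted p under 0.05 with a positive value was found for 33 of the 41 and for 5.29% of all genes. DESeq2 called 8 of the 41, beside 0.171% of all genes, and limma-voom 0. The smallest p was that of Dhx58 (0.65, SE 0.13, edgeR adjusted p = 0.141), followed by Ifi44 (1.01, SE 0.23, edgeR adjusted p = 0.252), Herc6 (0.51, SE 0.12) and Xaf1 (0.80, SE 0.19). Without shPKLR replicate 5, edgeR called 5 of the 41 (Dhx58, Rtp4, Mx2, Xaf1 and Irf9), and without PKLR replicate 4 it called Ifi44. Over all genes, 12 and 2 were called higher in those fits.

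The difference, the overexpression effect less the knockdown effect, was called for Oasl1 (1.33, SE 0.31, edgeR adjusted p = 0.0163) and Dtx3l (0.69, SE 0.17, edgeR adjusted p = 0.0241). Of all genes, 2.75% were called with a positive difference. Next came Mx1 (-1.44, SE 0.45, edgeR adjusted p = 0.0609), Ifih1 (0.75, SE 0.24, edgeR adjusted p = 0.0693) and Oas2 (-1.66, SE 0.59, edgeR adjusted p = 0.0907). Positive differences were found for 26 of the 41 and negative ones for 15. The Dtx3l call was lost without shLUC replicate 2. Mx1 was called without shPKLR replicate 2 or 5, Oas2 without shPKLR replicate 5, and Ifih1 without shPKLR replicate 2 or 3. In the plot of the fold changes, Oasl1, Dtx3l and Ifih1 lie left of zero and well above it, and Mx1 and Oas2 lie far right and near zero in overexpression.

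**Figure D4:**
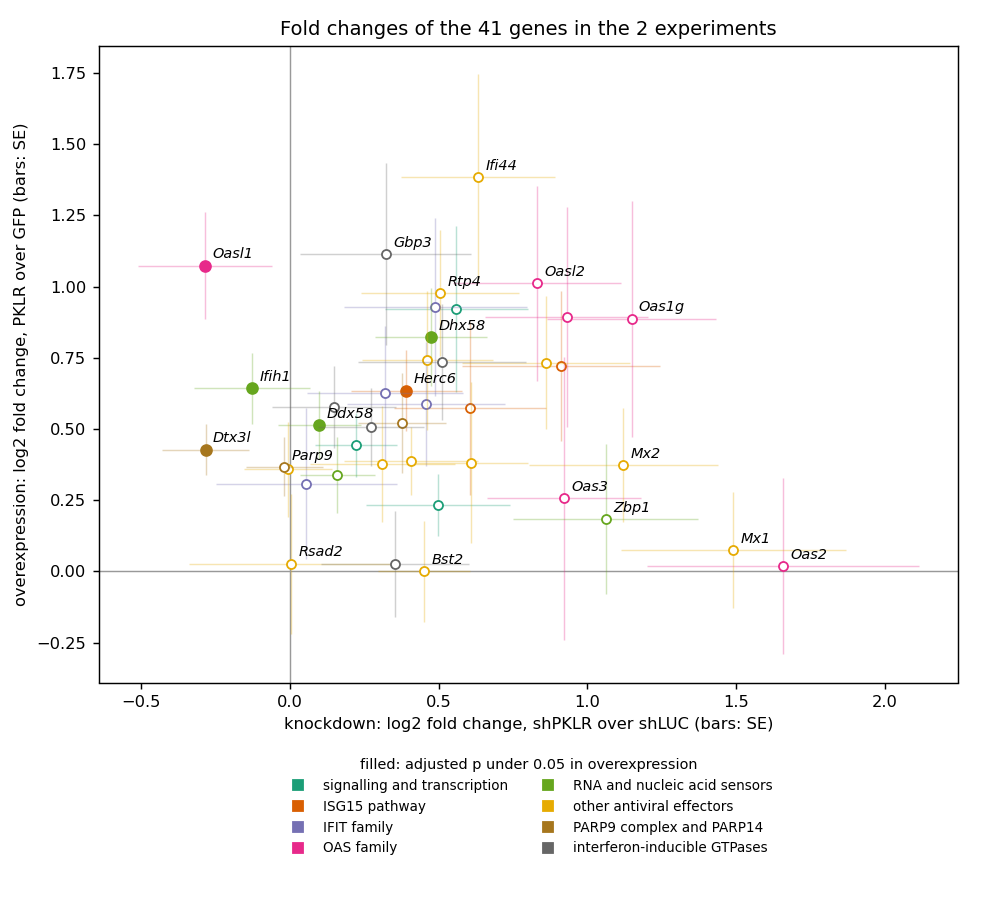
Log2 fold change of each of the 41 genes in the knockdown (x axis) and in overexpression (y axis), with the SE of each as a bar and colours for the role groups. Filled points are the 6 genes that edgeR called in overexpression, and it called none of the 41 in the knockdown.

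Liver by liver, the 41 genes varied together. The mean over the 41 of the log2 difference from the control group was 0.70, 0.32, 0.64, 0.76 and -0.37 in shPKLR replicates 1 to 5, and 0.11, 0.08, -0.23, 0.004 and 0.04 in shLUC. Replicate 5 was the lowest shPKLR liver for 37 of the 41 genes, while the other 4 lay above every shLUC liver in this mean. It was 0.83, 0.56, 0.62, -0.09 and 0.78 in PKLR replicates 1 to 5 and 0.38, 0.24, -0.27, -0.42 and 0.07 in GFP. PKLR replicate 4 was the lowest of its group for 38 of the 41, and the other 4 PKLR livers lay above every GFP liver. The shares of all genes that were lowest in these livers are not given here, so both counts stand without a background.

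The role groups did not all follow these orders. In shPKLR replicate 4 the mean over the OAS genes was 1.48 and that over Parp9, Parp14 and Dtx3l was -0.21. In PKLR replicate 4 the OAS mean was -0.43, and the means over the sensors (0.13) and over Parp9, Parp14 and Dtx3l (0.21) were above 0. The ratio of the highest to the lowest liver had a median over the 41 genes of 1.495 with shLUC, 2.97 with shPKLR, 1.92 with GFP and 1.88 with PKLR. The widest was 7.52, for Oas2 with shPKLR, where 28 of the 41 genes differed by more than 2 times between livers. The share of all genes that did so is not given here.

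Of the 8 livers with the highest or lowest interferon mean of their group, 6 also had the highest or lowest Pklr. Their directions were mixed: opposite ends in the shPKLR and GFP groups, and the lowest in both in the shLUC and PKLR groups. PKLR replicate 4 had the lowest Pklr of the PKLR livers (378 CPM), and replicate 1, with the highest interferon mean, had the second lowest (769 CPM). Among the shPKLR livers, replicate 5 had the highest Pklr (83.3 CPM) and the lowest interferon mean, and replicate 4 had the lowest Pklr (25.4 CPM) and the highest interferon mean. In the GFP group, replicate 1 had the lowest Pklr (64.3 CPM) and the highest interferon mean, and replicate 4 the highest Pklr (144 CPM) and the lowest interferon mean. In the shLUC group, replicate 3 was the lowest in both, and replicate 1, with the highest interferon mean, was second lowest in Pklr (376 CPM). The part of Pklr level in the order of livers was not tested, and 5 livers in a group are too few for a correlation.

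**Figure D5:**
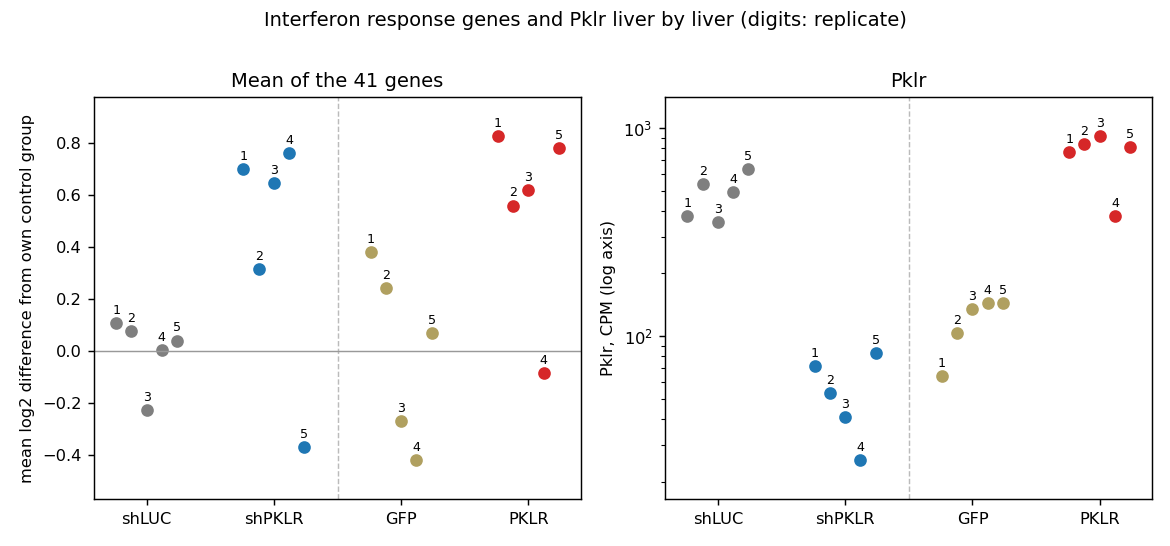
Left, mean over the 41 genes of log2 CPM less the mean of the experiment's control group (y axis) for each liver in the 4 groups (x axis). Right, Pklr in the same livers in CPM on a log axis. Digits are replicate numbers: shPKLR replicate 5 and PKLR replicate 4 are low on the left, and on the right they are the highest and the lowest of their groups.

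The 2 control groups differed in level. The mean was higher with GFP than with shLUC for 39 of the 41 genes, as for 54.8% of all 16407 genes of the joint fit, with a median ratio of 1.44 and a range from 0.889 (Oasl1) to 2.56 (Oas1g). In 6 of the 41 every GFP liver lay above every shLUC liver, as in 3.97% of all genes. The means of Mx1, for example, were 1.44 ± 0.256 CPM with shLUC and 3.61 ± 0.784 CPM with GFP (SD, n = 5 each), and Oasl1 was 1 of the 2 genes with the higher mean in shLUC. The vector and the experiment cannot be told apart in this comparison, and it was not tested.

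Other genes of the pathway came from lists named by function. Of 21 interferon ligand genes, reads were listed for Ifnb1, Ifnk and Ifng alone. Ifnb1, the first interferon made by many infected cells, had 3 reads in all, in 3 livers of the overexpression experiment. Ifng, the product of T and NK cells, had 27 reads over 6 livers in the knockdown experiment and 15 over 6 livers in overexpression, with at most 11 in a liver. No ligand gene passed the filter on low counts, so interferon transcripts could not be compared at this depth.

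Of the 9 receptor and JAK kinase genes 8 were tested, and 0 were called in either experiment, with 2 in the knockdown and 1 in overexpression at an unadjusted p under 0.05. Ifnar1 and Ifnar2, the chains of the type I receptor, had log2 fold changes of -0.02 and 0.04 in the knockdown and -0.03 and -0.04 in overexpression, and the kinase gene Tyk2 had 0.13 and 0.03. Ifngr1, a chain of the interferon gamma receptor, was at 17.3 ± 3.28 CPM with GFP and 13.0 ± 1.18 CPM with PKLR (SD, n = 5 each; -0.40, SE 0.12, edgeR adjusted p = 0.114), and at 0.26 (SE 0.11) in the knockdown. Its difference was called (-0.68, edgeR adjusted p = 0.0214), opposite in sign to those of Oasl1 and Dtx3l.

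Among further IRF genes, Irf1 (0.48, SE 0.19) and Irf5 (0.40, SE 0.20), which act downstream of interferon gamma and of Toll-like receptors, had the smallest p in the knockdown and were not called. None of the other sensors and adaptors (12 tested in the knockdown and 13 in overexpression) or of 5 negative regulators was called. Tbk1, the kinase that activates IRF3, had 0.21 (SE 0.09) in overexpression, and Socs1, an inhibitor of JAK kinases, had 0.91 (SE 0.31, edgeR adjusted p = 0.268) in the knockdown.

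A further list held 48 interferon-stimulated genes, all tested, and was also chosen with earlier results of these data known. In overexpression 32 were positive, 7 rose and 0 fell (median 0.29), beside 1.19% of all genes called higher. In the knockdown 40 were positive and 0 were called (median 0.33). An unadjusted p under 0.05 with a higher level was found there for 19, and for 9.32% of all genes. Znfx1, an RNA helicase of mitochondria that senses foreign RNA, rose from 41.4 ± 3.47 to 66.2 ± 10.4 CPM with Pklr overexpression (SD, n = 5 each; 0.69, SE 0.11, edgeR adjusted p = 0.0118), and had -0.06 (SE 0.15) in the knockdown. Parp12 rose by 0.51 (SE 0.10, edgeR adjusted p = 0.0262) and Trim21, an intracellular antibody receptor, by 0.49 (SE 0.09, edgeR adjusted p = 0.0238). The difference was negative for 27 of the 48 (median -0.20), with 4 called higher and 1 lower. Of all 16407 genes, 451 were called in each direction (2.75% each). Those called higher, the sign of Oasl1 and Dtx3l, were Znfx1 (0.73, edgeR adjusted p = 0.0283), Parp12 (0.62, edgeR adjusted p = 0.0340), Parp11 and Trim34a. Ifitm2, of a family that blocks viral entry, was called lower (-0.69, edgeR adjusted p = 0.0184). In the knockdown the smallest p-values were those of Ifi27l2a (1.05, SE 0.30, edgeR adjusted p = 0.224) and Helz2 (0.54, SE 0.16, edgeR adjusted p = 0.227).

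Genes of MHC class I presentation, which interferon also induces, were positive in 12 of 12 in overexpression (median 0.24) and in 10 of 12 in the knockdown (median 0.14). Tap1, a peptide transporter, was the only one to rise, with Pklr overexpression (0.46, SE 0.10, edgeR adjusted p = 0.0416). Psmb10, an immunoproteasome subunit, had 0.69 (SE 0.22, edgeR adjusted p = 0.255) in the knockdown.

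Markers of the cells that could carry these transcripts were examined in the same livers. The 15 macrophage and Kupffer cell markers were positive in 14 of 15 in the knockdown (median 0.45, 0 called, 6 at an unadjusted p under 0.05), close to the median of the interferon genes. Of all genes, 9.32% had a higher level at that p in the knockdown. In overexpression 10 of the 15 markers were negative and 5 positive, from -1.98 to 1.455 (median -0.25, 0 called). Their summed level was 222 to 399.7 CPM with shLUC, 209 to 503 with shPKLR, 174 to 629.9 with GFP and 160.5 to 454 with PKLR. The sum was 416 CPM in shPKLR replicate 5, which was low in interferon genes, and 160.5 CPM in PKLR replicate 4, the lowest of its group. Marco (1.77, SE 0.53, edgeR adjusted p = 0.229) had the smallest p of these markers in the knockdown, and Itgax had -1.62 (SE 0.45, edgeR adjusted p = 0.0924) in overexpression. Cd163 had the next smallest p in overexpression, with the opposite sign (1.455, SE 0.41, edgeR adjusted p = 0.0965). The part of macrophage content in the interferon genes was not tested.

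Hepatocyte markers had medians of 0.07 (knockdown) and 0.03 (overexpression), with summed levels of 70292 to 122074 CPM over the 20 livers. T and NK cell markers summed to 2.73 to 7.52 CPM, with medians of 0.44 in the knockdown (6 tested) and -0.49 in overexpression (7 tested). Those of plasmacytoid dendritic cells, the main producers of type I interferon in blood, summed to 16.0 to 54.6 CPM, most of it from Tcf4 and Ly6d. Their defining marker Siglech had means from 0.292 to 0.511 CPM. Neutrophil markers (3 tested) had medians of 0.78 and -0.28, B and plasma cell markers 0.23 and -0.34, endothelial markers -0.08 and 0.05, and cholangiocyte markers 0.26 and -0.06. Stellate cell markers had medians of 0.03 and -0.64. In overexpression 7 of 7 were negative, with 0 called and 6 lower at an unadjusted p under 0.05. The share of all genes lower at that p is not given here, so this count stands without a background. The part of stellate cells in the interferon genes was not tested. Within the experiments edgeR called 1 marker, the antibody gene Igkc in overexpression (-0.74, SE 0.16, edgeR adjusted p = 0.0389). In the difference it called 6 markers lower (Marco, Itgam, Itgax, Igkc, Des and Col3a1, from -1.01 for Des to -3.78 for Marco) and Ighm higher (1.64, edgeR adjusted p = 0.0459). The 6 were 3 of 15 macrophage, 1 of 7 B and plasma cell and 2 of 7 stellate cell markers. Of all 16407 genes, 451 were called lower in the difference and 451 higher (2.75% each). No listed marker was at 0 in every liver.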

How the data were processed

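Gene-level read counts, as whole numbers without normalization, were deposited in 1 table per experiment. The submitters' processing notes name HISAT2, DESeq2, GRCm38 and mm10 and give no versions. Which program and annotation produced the counts, and whether strand was used, is not given in the sources used here. Of the identifiers, 26859 of 27052 (knockdown) and 26094 of 26286 (overexpression) matched GENCODE M21, which gave symbols, coordinates and exon lengths.

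Counts were scaled by TMM and filtered by filterByExpr, and each experiment was fitted with the robust quasi-likelihood test of edgeR 4.0.16 in R 4.3.3. P-values were adjusted by Benjamini-Hochberg over all genes tested, and calls were made at 0.05. A joint fit of all 20 livers gave the mean effect and the difference. The SE is the log2 fold change divided by the square root of its F statistic. Log2 CPM used a prior count of 2. Steps were tested on simulated counts. Library totals are given with the results, and genes of a few CPM are the least precise.

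Members and lists were chosen with earlier results of these data known. Values by liver are given for genes called in any fit and, where fewer than 6 were called, for those of smallest p up to 6. Of the lists named by function, genes called (up to 3 by p), otherwise up to 2 of smallest p, and Ifnar1, Ifnar2 and Tyk2 could be named. Gbp3, Isg15, Irf7, Ifit1, Iigp1, Rsad2 and Bst2 were given levels or folds after their values were seen. Shared 50-base stretches were counted in GENCODE transcripts. Alternatives were RLE size factors, DESeq2 1.42.0, voom of limma 3.58.1, no filter, a stricter filter (above 1 CPM in 5 libraries or more), the replicate number as a block, shPKLR replicate 4 thinned, 1 fit of all 20 libraries, each library left out, and, for promoters, a shorter window and 1 mismatch. A gene of the pathway lists is not reported here. The labels do not say whether livers of 1 group came from separate batches.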

Additional observations from a re-analysis of the deposited data

Results flagged for a closer look

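PKLR replicate 4 stood apart from the other 4 PKLR livers in 3 of the genes with values by liver: its gap to the nearest liver, as a share of the range of the group, was 0.744 for Dhx58, 0.715 for Oas1g and 0.712 for Rtp4, each above Dixon's critical value of 0.71. The check covered 68 combinations of gene and group, and chance flags about 1 in 20, so 3 flags are no more than chance gives. The levels of these genes vary together across livers, so these are not 3 separate signs. Pklr itself was lowest in this liver of its group.

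The effects of overexpression and knockdown differed from each other, by a test of the difference in the joint edgeR fit, for Oasl1 (1.33 on the log2 scale, adjusted p = 0.0163) and Dtx3l (0.69, adjusted p = 0.0241). Both were higher in 5 of 5 PKLR livers than in any GFP liver and had negative log2 fold changes in the knockdown.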

How the results depend on the processing

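Of the genes with values by liver, none changed direction, under any alternative run, in the comparison whose p placed it among them. The number of the 41 genes with positive log2 fold changes ran from 36 to 41 in overexpression and from 34 to 38 in the knockdown. Counts of calls among the 41 genes moved too. With DESeq2, 6 were called higher in the knockdown, 19 in overexpression and 8 for the mean effect. In the difference DESeq2 called 3 higher and 2 lower, beside 790 higher and 836 lower over all genes. In 1 fit of all 20 libraries, 1 was called in the knockdown and 3 in overexpression. Replicate numbers are shared by the groups, but nothing in the labels says that they pair livers, and the correlations between same-numbered livers ran from -0.199 to 0.352. With the number as a replicate block 24 were called in overexpression in place of 6, and 0 in the knockdown. Over all genes, the block gave 264 higher calls in overexpression in place of 188. With each library left out in turn, the number called ran from 1 to 13 in overexpression, stayed 0 in the knockdown, and ran from 0 to 5 for the mean effect. In the difference it ran from 1 to 3 higher and 0 to 2 lower. Over all genes, higher calls in the same fits ran from 64 to 199 in overexpression and from 0 to 12 for the mean effect. In the difference, calls over all genes ran from 247 to 616 higher and from 232 to 768 lower. The median difference ran from 0.054 to 0.29. The mean log2 difference over the 41 genes ran from 0.32 to 0.61 in the knockdown and from 0.43 to 0.70 in overexpression. Of 17 alternatives, Oasl1 stayed called in overexpression in all, Ifih1 in 11, Dhx58 and Dtx3l in 10 each, Herc6 in 6 and Ddx58 in 4. With 1 mismatch allowed, the ISRE core was found in 28 of 30 genes (38.9% of all genes) and the GAS core in 27 (74.2%). The causes were not tested. Thinning shPKLR replicate 4 to the depth of the others left the numbers called among the 41 genes unchanged. Over all genes, thinning gave 4 higher and 3 lower calls in the knockdown in place of 0 and 1. In the difference it gave 434 higher and 426 lower in place of 451 each.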
